A study of Mus musculus with 10 samples.

Results

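Imprinted growth genes were compared between 5 lines of mouse embryonic stem cells on 2 days of culture. 9 genes were chosen by symbol, namely Igf2, Igf2r, Grb10, Cdkn1c, Dlk1, H19, Mest, Peg3 and Impact. 8 of them had a probe with that symbol in the annotation used, with 13 probes in all, and H19 was not analysed here. The annotation named 14288 of the 45281 probes on the array, so a symbol missing from it is not shown to be missing from the array. All 13 probes were among the 17775 kept after a filter on detection, but so were all 14281 probes named with a single gene. Those 14281 probes stood for 9401 genes. 5 of the genes had 2 probes and 3 had 1. The probe with the higher mean signal stands for the gene below, and the other is given beside it.

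An imprinted gene is transcribed mainly from the copy inherited from 1 parent, depending on DNA methylation laid down in the egg or sperm at an imprinting control region. The methylated copy of that region can lie on the silent or on the expressed copy of the gene. After fertilization the mark is kept through each division by the maintenance methyltransferase DNMT1 and by zinc finger proteins such as ZFP57, which recruit the corepressor TRIM28 to methylated control regions. Many imprinted genes act on fetal growth, those expressed from the paternal copy often promoting it and those expressed from the maternal copy often restraining it. Loss or gain of imprints in culture is a known source of differences between embryonic stem cell lines.

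The cells were G-CCE, a feeder-free line grown on gelatin, and the study asked what MMTR, the protein encoded by Dmap1 and a subunit of the Tip60-p400 complex, does in self-renewal and differentiation. The tested lines were MMTR KD, transduced with a lentivirus for a short hairpin RNA against MMTR/Dmap1 and picked for EGFP, and 3 lines transfected with Flag-tagged constructs and selected with puromycin, MMTR-F with the whole protein, MMTR-N with its N-terminal part and MMTR-C with its C-terminal part. The labels name no construct for the WT line and do not say whether it was mock-treated. Transfection, selection and picking can thus not be taken as matched in it. Each line was sampled at d3 of differentiation, 3 days after LIF, the cytokine that holds these cells undifferentiated, had been withdrawn, and at d0 in LIF. The study's methods describe differentiation by hanging drops, with the aggregates moved to bacterial dishes on the second day, so the days may differ in aggregation as well as in LIF. Each line and day had 1 library, each construct stands for 1 line, and nothing in the labels marks a second culture, so a difference between lines cannot be told apart from a difference between independent isolates of G-CCE.

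Signals were log2 transformed and quantile normalized, and differences below are on that log2 scale. Because the signals were not background-subtracted, differences of dim probes are understated. A model with line and day as terms (limma) gave each line's difference from WT over both days and the difference of d3 from d0 over the 5 lines, with p-values adjusted over all 17775 probes. With 1 library per line and day, its error is the spread left after line and day, and the 4 comparisons with WT share the same WT libraries. The Dmap1 probe was 1.50 above WT in the line labelled MMTR-C (SE 0.10, adjusted p = 0.0031), and differed from WT by 0.08 in MMTR KD, by -0.07 in MMTR-N and by -0.18 in MMTR-F (adjusted p = 0.74, 0.79 and 0.47), so this probe showed neither a lower level in the line labelled MMTR KD nor a higher one in the line labelled MMTR-F. For the lines with Flag constructs the study shows the expressed proteins by immunoblot. By chromatin immunoprecipitation it reports more MMTR at the tested promoters with overexpression and less with knockdown. Where the probe lies relative to the constructs was not examined, and line names below are those of the labels. Median raw signals were 337 to 347 on the d3 arrays and 218 to 244 on the d0 arrays, so day and raw signal level cannot be told apart. All 8 markers of embryonic stem cells on a list of 8, Pou5f1 and Nanog among them, were detected in all 10 libraries.

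The promoters of Grb10 and Mest are shown because the levels of these genes lay below WT in each of the 4 tested lines on both days. The windows run over 300 bases, 250 before and 50 after an annotated start (RefSeq, GRCm38.p6), and capitals mark TGCCGC or its reverse complement GCGGCA, the letters that ZFP57 reads in mouse when the CpG is methylated. No other motif was searched. The first Grb10 window (chr11:12037371-12037670, minus strand) holds the motif in 1 place and 45 CpGs, and the second (chr11:12027922-12028221, minus strand) holds 9 CpGs and no match. The first Mest window (chr6:30737800-30738099, plus strand) holds the motif in 2 places and 17 CpGs, and the second (chr6:30733256-30733555, plus strand) holds 8 CpGs and no match.
Grb10, first window: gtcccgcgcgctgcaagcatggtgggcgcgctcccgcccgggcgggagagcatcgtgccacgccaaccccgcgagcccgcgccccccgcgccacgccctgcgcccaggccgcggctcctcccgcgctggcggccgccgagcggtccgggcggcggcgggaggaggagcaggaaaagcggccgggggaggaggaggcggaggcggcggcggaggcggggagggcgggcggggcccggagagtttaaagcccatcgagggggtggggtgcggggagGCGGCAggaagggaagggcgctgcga
Grb10, second window: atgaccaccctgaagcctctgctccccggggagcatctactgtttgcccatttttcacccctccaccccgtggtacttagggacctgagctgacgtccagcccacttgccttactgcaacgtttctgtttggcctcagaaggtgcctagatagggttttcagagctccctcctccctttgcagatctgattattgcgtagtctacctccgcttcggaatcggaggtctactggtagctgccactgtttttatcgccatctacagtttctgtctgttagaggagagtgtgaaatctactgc
Mest, first window: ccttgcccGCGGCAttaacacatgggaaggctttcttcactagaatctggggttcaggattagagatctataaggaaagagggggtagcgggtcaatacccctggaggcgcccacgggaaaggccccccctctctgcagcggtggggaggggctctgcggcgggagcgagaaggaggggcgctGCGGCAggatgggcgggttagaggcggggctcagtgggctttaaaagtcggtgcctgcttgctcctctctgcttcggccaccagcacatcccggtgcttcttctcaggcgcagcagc
Mest, second window: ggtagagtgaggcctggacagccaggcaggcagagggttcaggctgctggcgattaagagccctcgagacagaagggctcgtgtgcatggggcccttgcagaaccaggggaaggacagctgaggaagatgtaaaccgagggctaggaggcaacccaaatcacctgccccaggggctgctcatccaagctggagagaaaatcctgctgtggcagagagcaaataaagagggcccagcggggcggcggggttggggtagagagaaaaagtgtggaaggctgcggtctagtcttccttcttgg
Over all 32851 windows of this length, 11.6% held the motif and the median was 7 CpGs. Of the 9 genes, 6 had windows, 12 in all, and 4 of these held the motif, 1 of 2 for Grb10, 2 of 3 for Mest and 1 of 4 for Igf2. The 2 Mest windows with the motif overlap almost wholly and hold the same matches, so these are not separate sites. The windows of Dlk1, Igf2r and Peg3 held none. A match here is a run of letters and not a measured binding site.

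Over both days, 4 of the 8 genes were called in a test of any line difference among the 5 lines, against 4.46% of all kept probes. These were Grb10, Igf2r and Impact, and also Mest, which passed the filter only through the lines where it was higher. Against WT, Impact was lower in the line labelled MMTR KD, where 3.31% of all kept probes were called, 1.73% lower and 1.58% higher. Mest was called lower there too. Because of how it passed the filter, its calls here and in the test of any line difference are given as values and not read as a result. Grb10 alone was lower in MMTR-F (0.045% called, 0.0225% in each direction), in MMTR-N (0.0731% called, 0.0225% lower and 0.0506% higher) and in MMTR-C (0.0169% called, 0.0113% lower and 0.00563% higher). None of the 8 was called higher than WT in any line by limma. Of the 32 pairs of gene and line 5 were called, that of Mest in MMTR KD among them, and 14 had an unadjusted p under 0.05. The share of all kept probes at an unadjusted p under 0.05 was not computed. Counts at that level, here and below, thus have no background and are not read as an excess. The median difference from WT over the 8 genes was 0.03 in MMTR KD, -0.17 in MMTR-C, -0.07 in MMTR-N and -0.35 in MMTR-F, and over all kept probes it was -0.00 in MMTR KD and -0.01 in each of the other 3. With unmoderated variances 0 of the 8 genes were called in any of these comparisons. That setting called 0.0113% of all kept probes in the test of any line difference. Against WT it called 0.0169% in MMTR KD, 0.00563% in both MMTR-N and MMTR-C, and 0 in MMTR-F. The Grb10 estimate was the lowest of all 17775 probes in MMTR-F and the second lowest in both MMTR-N and MMTR-C.

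The tested lines were also compared with each other. MMTR KD differed from MMTR-F in 4 of the 8 genes, with Grb10, Igf2 and Dlk1 higher and Impact lower (background 6.17%, 2.59% higher and 3.58% lower). It differed from MMTR-C in 2, with Grb10 higher and Impact lower (background 1.8%, 0.782% higher and 1.02% lower), and from MMTR-N in 4, with Grb10 and Igf2 higher and Igf2r and Impact lower (background 7.39%, 3.63% higher and 3.76% lower). Between the 3 lines with Flag constructs, limma called none of the 8. Of all kept probes, it called 0.0169% for MMTR-N against MMTR-F, 0.681% for MMTR-N against MMTR-C and 0.512% for MMTR-F against MMTR-C. At an unadjusted p under 0.05 there were 2, 3 and 1 of the 8 in that order. No background was computed at that level, so these counts are not set against the shares called. The calls among members thus all have MMTR KD or WT on 1 side.

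Single libraries can be set beside WT on each day, with no test, at a difference of 0.5 or more. At d3, 3 of the 8 genes were lower and 2 higher in MMTR KD, against 2.85% and 3.37% of kept probes. At d3, Grb10 and Mest were the 2 lower genes in each line with a Flag construct, where 0.287% of probes were lower in MMTR-C, 2.86% in MMTR-F and 3.36% in MMTR-N. Igf2r was higher at d3 in MMTR-N, with 4.99% of probes, and none of the 8 was higher in MMTR-F (4.28%) or MMTR-C (0.703%). At d0, 3 were lower and 2 higher in MMTR KD (4.88% and 4.76% of probes), 5 lower and none higher in MMTR-F (2.5% and 2.69%), 3 lower and none higher in MMTR-C (1.92% and 2.87%), and 2 lower and 1 higher in MMTR-N (1.2% and 2.03%). Grb10 and Mest were lower by this measure in all 4 lines on both days, and no other member was lower on both days in more than 1 line.

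**Figure D1:**
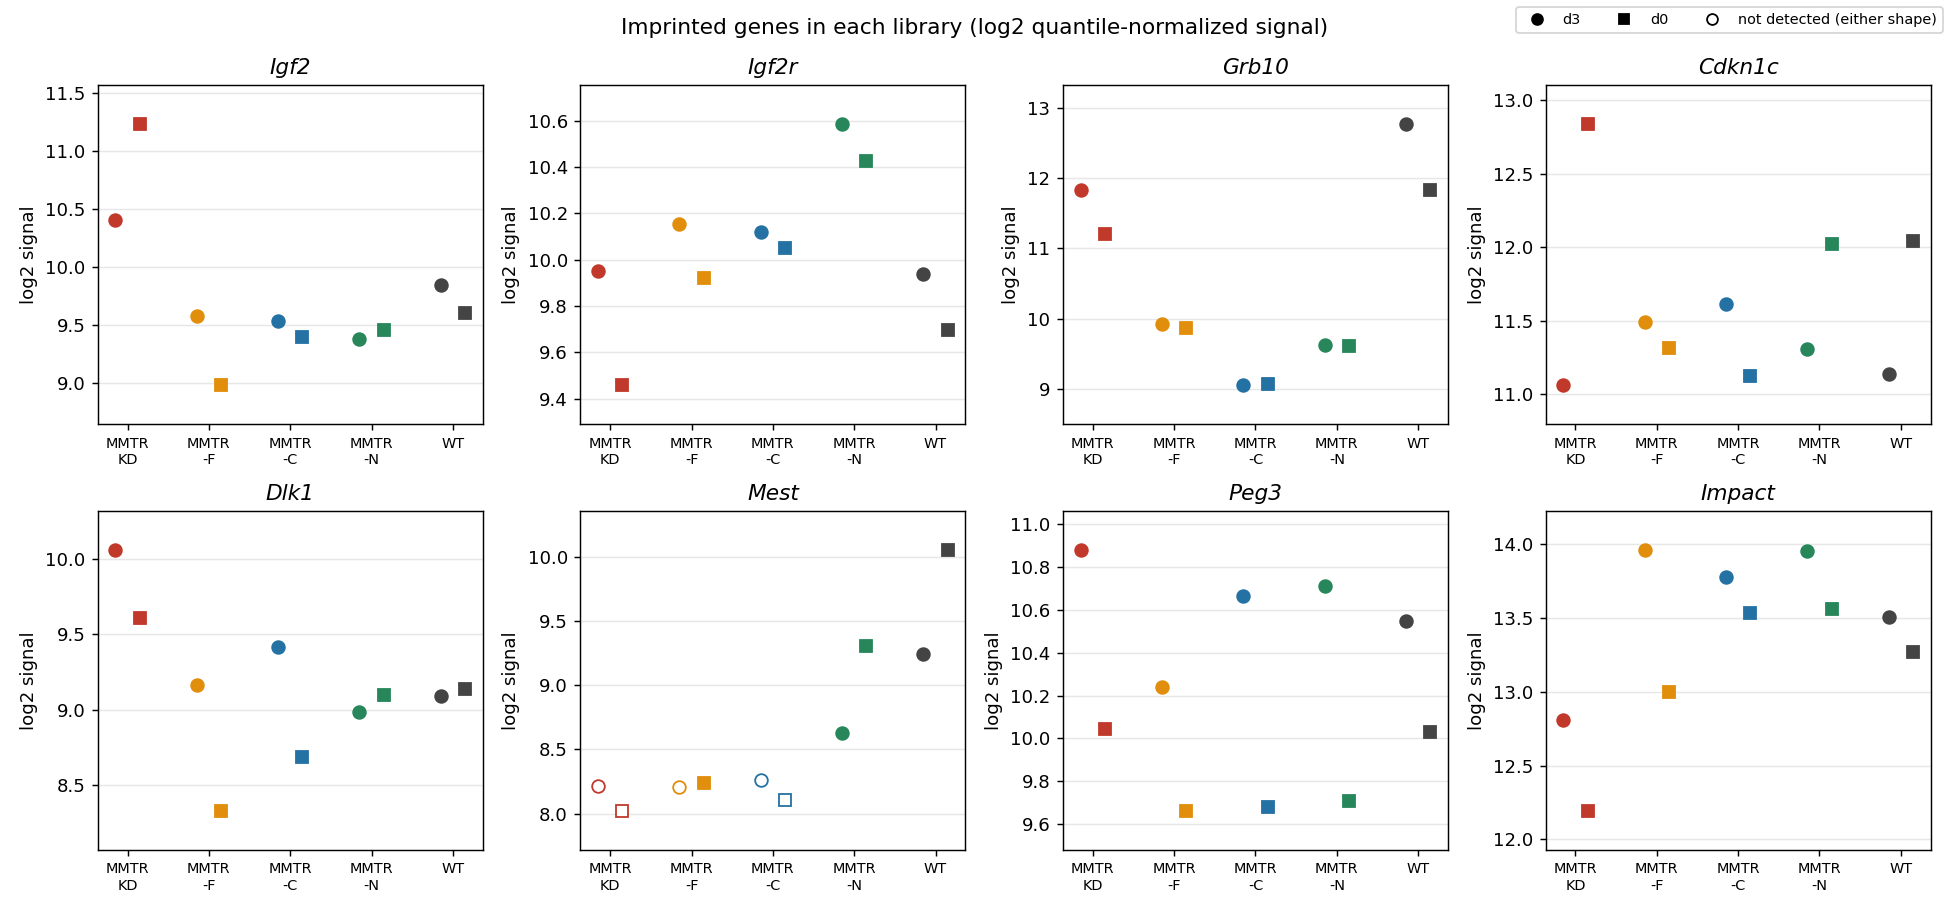
Log2 quantile-normalized signal of 8 imprinted genes (vertical axes, a scale of its own in each panel) in the 4 tested lines (MMTR KD first) and WT, with d3 as circles left of d0 as squares. Open symbols are libraries in which the probe was not detected. Grb10 falls into a high pair of lines (MMTR KD and WT) and a low trio between 9.06 and 9.92, and Mest was detected on both days only in MMTR-N and WT.

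Grb10 encodes an adaptor that binds the activated insulin and IGF1 receptors and damps their signal. It lies at chr11:11930499-12037428 (GRCm38.p6), and is expressed from the maternal copy in most mouse tissues and from the paternal copy in neurons. Its level was 11.83 at d3 and 11.21 at d0 in MMTR KD, 9.63 and 9.61 in MMTR-N, 9.92 and 9.86 in MMTR-F, 9.06 and 9.07 in MMTR-C, and 12.77 and 11.83 in WT. The 6 libraries of the 3 lines with Flag constructs were all below the 4 libraries of MMTR KD and WT, and the probe was detected in all 10. In a bulk sample, fewer expressing cells and less RNA per cell cannot be told apart.

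Over both days Grb10 differed from WT by -3.23 in MMTR-C (SE 0.23, 9.39-fold lower, adjusted p = 0.0031), by -2.68 in MMTR-N (SE 0.23, 6.40-fold lower, adjusted p = 0.013) and by -2.40 in MMTR-F (SE 0.23, 5.29-fold lower, adjusted p = 0.023). The MMTR-F call was lost without the MMTR KD line (adjusted p = 0.062) or without the MMTR-C line (0.060), while the estimate stayed at -2.40. In MMTR KD the difference from WT was -0.78 (SE 0.23, adjusted p = 0.11), and with median scaling it was -0.94 and called (adjusted p = 0.028). MMTR KD stood above MMTR-F by 1.63 (adjusted p = 0.013), above MMTR-C by 2.45 (adjusted p = 0.0070) and above MMTR-N by 1.90 (adjusted p = 0.011). Among the 3 low lines the order was MMTR-F, MMTR-N, MMTR-C, and no neighbouring pair was called. MMTR-N minus MMTR-F was -0.27 (SE 0.23, adjusted p = 0.74), and MMTR-N minus MMTR-C was 0.55 (SE 0.23, unadjusted p = 0.040 by limma, adjusted p = 0.27).

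The second Grb10 probe was dim, with a mean level of 8.40 against 10.48 for the first, and was not detected in MMTR-C at d0. Its differences from WT had the same sign in the 4 lines, at -0.27 in MMTR-C, -0.25 in MMTR-N, -0.19 in MMTR-F and -0.13 in MMTR KD, and none was called (adjusted p = 0.27 or more). The day-centred levels of the 2 probes correlated at r = 0.883 over the 10 libraries. Of the 3 measured genes within 1 Mb, Cobl, an imprinted actin nucleator gene, differed from WT by 0.12 in MMTR-C, 0.17 in MMTR-N, 0.61 in MMTR-F and 0.46 in MMTR KD. Ddc, which encodes aromatic amino acid decarboxylase and is the nearest to Grb10, differed by 0.04, 0.30, 0.83 and 0.11 in that order of lines, and Fignl1 by -0.30, 0.09, 0.04 and -0.59. None of them lay as far below WT as Grb10 in any line. The median over 796 other genes of chromosome 11 was within 0.06 of 0 in every line.

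Between days, the Grb10 levels were furthest apart in the lines where it was high. The d3 level was above the d0 level by 0.62 in MMTR KD and by 0.94 in WT, and the differences were 0.05 in MMTR-F, 0.03 in MMTR-N and -0.01 in MMTR-C. The difference over the 5 lines was 0.33 (SE 0.14, adjusted p = 0.093), and whether the lines differ in it was not tested. The genes whose day-centred levels were most like Grb10 over the 10 libraries were Skp2, which encodes a substrate receptor of an SCF ubiquitin ligase (r = 0.920), the splicing factor gene Sf3a1 (r = 0.912) and the claudin gene Cldn12 (r = 0.904). Their day-averaged ranges over lines were 0.20, 0.35 and 0.32, against 3.23 for Grb10.

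**Figure D2:**
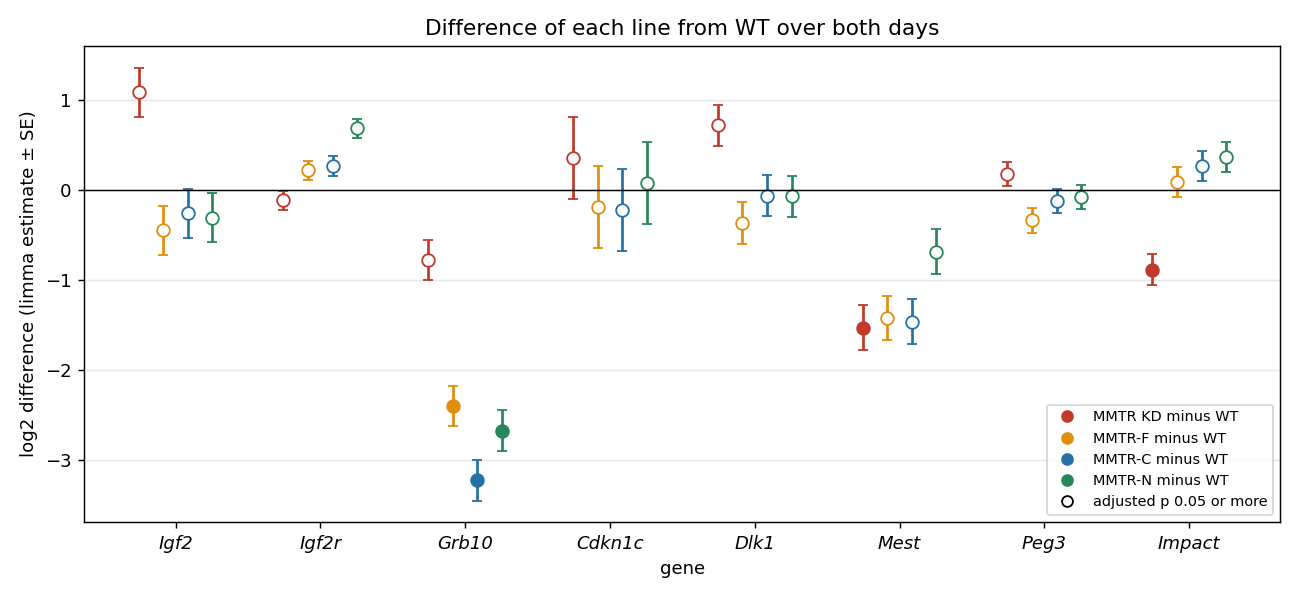
Difference of each tested line from WT over both days (limma estimate on the log2 scale, bars are ± 1 SE) for each imprinted gene, with filled symbols where the adjusted p was under 0.05. The 5 filled symbols are Grb10 in each line with a Flag construct, and Mest and Impact in MMTR KD.

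Igf2 encodes a fetal growth factor of the insulin family and is expressed from the paternal copy, at chr7:142650768-142666816, near H19, which is expressed from the maternal one. Its level was 10.41 at d3 and 11.23 at d0 in MMTR KD, 9.38 and 9.46 in MMTR-N, 9.58 and 8.99 in MMTR-F, 9.54 and 9.40 in MMTR-C, and 9.85 and 9.61 in WT. Both MMTR KD libraries were above all 8 others. The difference from WT was 1.09 in MMTR KD (SE 0.27, adjusted p = 0.072) and -0.44 in MMTR-F, -0.31 in MMTR-N and -0.26 in MMTR-C (adjusted p = 0.49, 0.65 and 0.85), so no line was called against WT. MMTR KD was 1.54 above MMTR-F (adjusted p = 0.022) and 1.40 above MMTR-N (adjusted p = 0.026), and 1.35 above MMTR-C (adjusted p = 0.054). Within days, the excess of MMTR KD over WT was 0.56 at d3 and 1.62 at d0.

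Markers of extraembryonic endoderm were high in the same libraries, and the measured markers of other cell types are given after them. Of 10 markers of extraembryonic endoderm, 3 had a kept probe with a gene name (Sox7, Dab2 and Amn), and their summed level on the log2 scale was 11.60 at d3 and 11.62 at d0 in MMTR KD, against 10.48 to 10.71 at d3 and 10.12 to 10.74 at d0 over the other 4 lines. Dab2, an endocytic adaptor gene, was 1.50 higher in MMTR KD than in WT (SE 0.28, adjusted p = 0.033), and Amn, the amnionless gene, was 1.00 higher (SE 0.09, adjusted p = 0.0081). Sox7 was 8.81 at d3 and 9.67 at d0 in MMTR KD, and was higher at d0 in MMTR-C, at 10.05. Gata4, Gata6 and Sox17 had no kept probe with a name. The lists of early mesoderm, trophoblast and fibroblast markers had 1 measured gene each, not called against WT in any line. The mesoderm marker Mixl1 was 9.14 at d3 and 8.28 at d0 in MMTR KD, against 8.29 and 8.05 in WT. Tfap2c, of trophoblast, was 10.79 and 11.32, against 9.61 and 11.36, and was highest in MMTR-N at d3 (12.33) and MMTR-F at d0 (12.13). Thy1, of fibroblasts, was 9.97 and 9.16, against 10.30 and 9.23. Dab2 was also the gene most like Igf2 in its day-centred levels (r = 0.975 over 10 libraries), before Wdr1 (r = 0.971) and Ppp2ca (r = 0.969). The part of cells of any of these types in the level of Igf2 in MMTR KD, and in those of Dlk1, Mest and Impact given below, was not tested.

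The 14 other measured genes within 1 Mb of Igf2, Cdkn1c among them, ranged from -0.61 to 0.43 against WT in MMTR KD, with a median of 0.00. The lowest of them was Phlda2, an imprinted gene that restrains placental growth.

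Igf2r encodes the receptor that carries IGF2 to lysosomes for degradation and is expressed from the maternal copy in the mouse, at chr17:12682406-12769706. Its level was 9.95 at d3 and 9.46 at d0 in MMTR KD, 10.58 and 10.42 in MMTR-N, 10.15 and 9.92 in MMTR-F, 10.12 and 10.05 in MMTR-C, and 9.94 and 9.70 in WT. MMTR-N was the highest line on each day. It differed from WT by 0.69 (SE 0.11, adjusted p = 0.10), and MMTR KD was 0.80 below it (SE 0.11, adjusted p = 0.012). In the order of lines MMTR KD, WT, MMTR-F, MMTR-C, MMTR-N, no neighbours were called. MMTR-N minus MMTR-C was 0.42 (SE 0.11, unadjusted p = 0.0044 by limma, adjusted p = 0.10), a gap larger than its error that missed the adjusted threshold. Lines differed at both probes by the test of any line (adjusted p = 0.033 and 0.046), and the second probe gave 0.63 for MMTR-N against WT (adjusted p = 0.11). The 9 measured genes within 1 Mb of Igf2r had a median difference of -0.46 in MMTR KD and 0.05 in MMTR-N.

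Cdkn1c encodes p57, an inhibitor of cyclin-dependent kinases, and is expressed from the maternal copy at chr7:143458339-143461059. Its level was 11.06 at d3 and 12.84 at d0 in MMTR KD, 11.31 and 12.03 in MMTR-N, 11.49 and 11.31 in MMTR-F, 11.62 and 11.12 in MMTR-C, and 11.14 and 12.04 in WT. The lines spanned 1.71 at d0 and 0.55 at d3. No line kept 1 direction against WT on both days, and none of the 4 lines was called (estimates -0.22 to 0.36, SE 0.46, adjusted p = 0.72 or more). The d3 level was below the d0 level by 1.78 in MMTR KD, by 0.72 in MMTR-N and by 0.91 in WT, and above it by 0.18 in MMTR-F and 0.49 in MMTR-C. The difference over the lines was -0.55 (SE 0.29, adjusted p = 0.15). It was -0.24 without the MMTR KD line (adjusted p = 0.43), while it was called without the MMTR-C line (-0.81, adjusted p = 0.049) and with median scaling (-0.77, adjusted p = 0.042).

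Dlk1 encodes a transmembrane protein related to Notch ligands and is expressed from the paternal copy at chr12:109452485-109463336. Its level was 10.06 at d3 and 9.61 at d0 in MMTR KD, 8.99 and 9.10 in MMTR-N, 9.17 and 8.33 in MMTR-F, 9.41 and 8.68 in MMTR-C, and 9.09 and 9.14 in WT. MMTR KD was the highest line on each day. It was 1.09 above MMTR-F (SE 0.23, adjusted p = 0.034), and the second probe gave 0.40 (SE 0.09, adjusted p = 0.038). Against WT it differed by 0.72 (SE 0.23, adjusted p = 0.14). The most like genes were Trmt10a (r = 0.947), Slco3a1 (r = 0.934) and Slc7a7 (r = 0.932).

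Mest encodes a protein of the alpha/beta hydrolase fold and is expressed from the paternal copy at chr6:30733506-30748466. Its level was 8.21 at d3 and 8.02 at d0 in MMTR KD, 8.63 and 9.30 in MMTR-N, 8.20 and 8.24 in MMTR-F, 8.26 and 8.11 in MMTR-C, and 9.24 and 10.06 in WT. The probe was not detected in MMTR KD or MMTR-C on either day or in MMTR-F at d3, so it met the filter at 5 of 10 arrays, the smallest number the filter allows. Where the probe was detected in both libraries, the difference from WT was -0.61 in MMTR-N at d3, -0.75 in MMTR-N at d0 and -1.81 in MMTR-F at d0. The other libraries give only bounds, with MMTR KD at least 1.95-fold lower than WT at d3 and at least 3.59-fold lower at d0. The bounds are set against the lowest level of a detected kept probe on each array. Over both days Mest was at least 2.65-fold lower than WT in MMTR KD (estimate -1.53, SE 0.25, adjusted p = 0.025) and at least 2.65-fold lower in MMTR-C (estimate -1.46, adjusted p = 0.18). The estimates were -1.43 in MMTR-F (adjusted p = 0.065) and -0.68 in MMTR-N (adjusted p = 0.26). Differences of like size had unlike adjusted p because the adjustment runs over all probes of each comparison, of which 3.31% were called in MMTR KD and 0.0169% in MMTR-C.

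The 11 measured genes within 1 Mb of Mest had medians against WT of 0.14 in MMTR-F, 0.02 in MMTR-N, 0.00 in MMTR-C and -0.01 in MMTR KD. Copg2, a coatomer subunit gene that overlaps Mest in the annotation, differed from WT by 0.14, 0.18, 0.16 and -0.01 in that order of lines. The genes most like Mest were the syntaxin gene Stx3 (r = 0.989), Chchd6 (r = 0.958) and the mitochondrial ribosomal protein gene Mrpl36 (r = 0.951). Mest was detected on 5 of the 10 arrays, so these correlations rest in part on levels below detection.

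**Figure D3:**
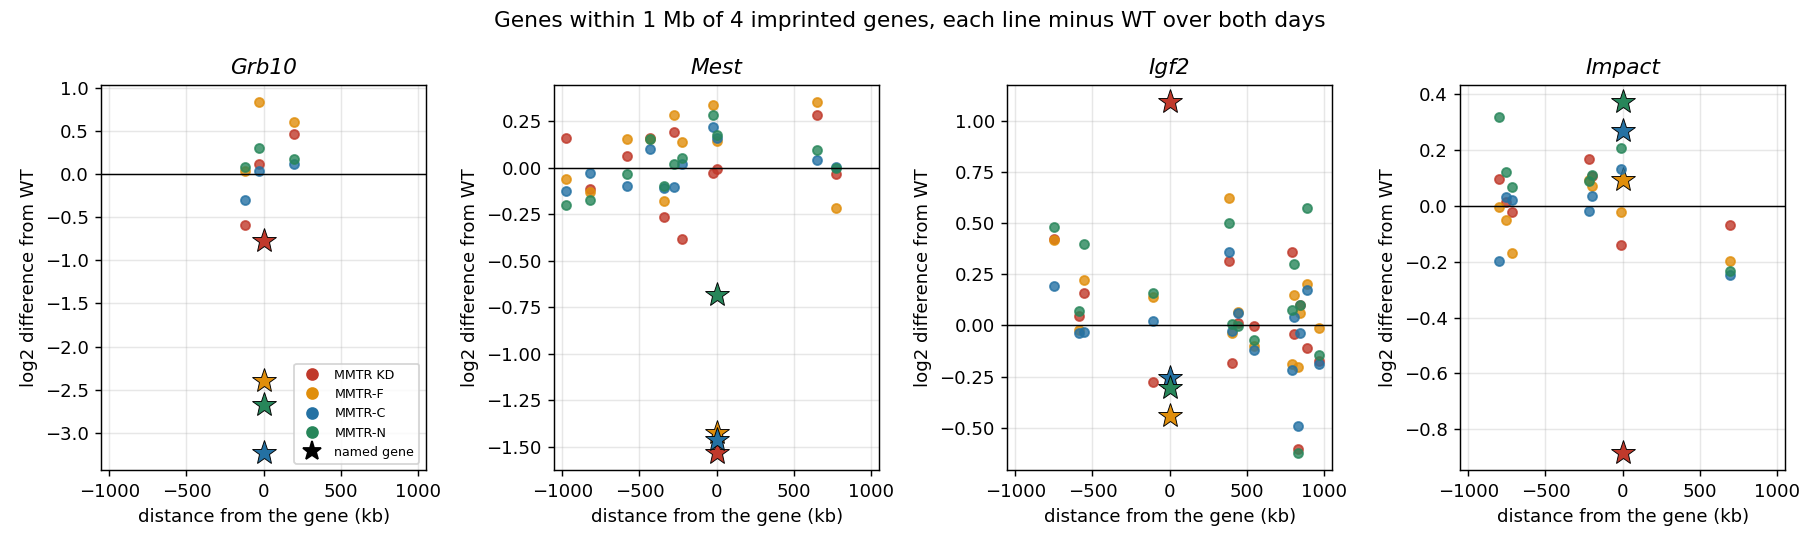
Difference from WT over both days (vertical axes, log2 scale, a scale of its own in each panel) against distance in kb for genes measured within 1 Mb of Grb10, Mest, Igf2 and Impact. Dots are neighbouring genes and stars the named gene, coloured by line. In the Grb10 and Mest panels the stars of all 4 lines lie below every dot.

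Peg3 encodes a zinc finger protein and is expressed from the paternal copy at chr7:6703892-6730462. Its level was 10.88 at d3 and 10.05 at d0 in MMTR KD, 10.71 and 9.71 in MMTR-N, 10.24 and 9.66 in MMTR-F, 10.66 and 9.68 in MMTR-C, and 10.55 and 10.03 in WT. All 5 d3 libraries were above all 5 d0 libraries, which held for no other of the 8 genes and for 12.5% of all kept probes, while 13.9% of probes had all d3 libraries below. The difference between days was 0.78 (SE 0.09, adjusted p = 2.6e-04), and the dimmer second probe gave 0.27 (SE 0.08, adjusted p = 0.028). No line was called against WT at either probe (adjusted p = 0.19 or more).

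Impact encodes an inhibitor of the stress kinase GCN2 and is expressed from the paternal copy in the mouse, on chromosome 18. Its level was 12.81 at d3 and 12.19 at d0 in MMTR KD, 13.96 and 13.56 in MMTR-N, 13.96 and 12.999 in MMTR-F, 13.78 and 13.53 in MMTR-C, and 13.51 and 13.27 in WT. Both MMTR KD libraries were below all 8 others. MMTR KD was lower than WT by 0.88 (SE 0.17, adjusted p = 0.035), than MMTR-F by 0.98 (adjusted p = 0.020), than MMTR-C by 1.15 (adjusted p = 0.023) and than MMTR-N by 1.26 (adjusted p = 0.012). The call against WT was lost without the MMTR-C line (adjusted p = 0.051), with the same estimate. The second probe differed by -0.45 from WT (SE 0.11, adjusted p = 0.061), by -0.50 from MMTR-F (adjusted p = 0.034), by -0.49 from MMTR-C (adjusted p = 0.065) and by -0.63 from MMTR-N (adjusted p = 0.018). No pair of the other 4 lines was called (adjusted p = 0.36 or more). The 7 measured genes within 1 Mb lay between -0.14 and 0.17 in MMTR KD. The most like genes were Mcf2l (r = 0.973), Nars (r = 0.967), on the same chromosome, and Atp6v1b2 (r = 0.965).

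**Figure D4:**
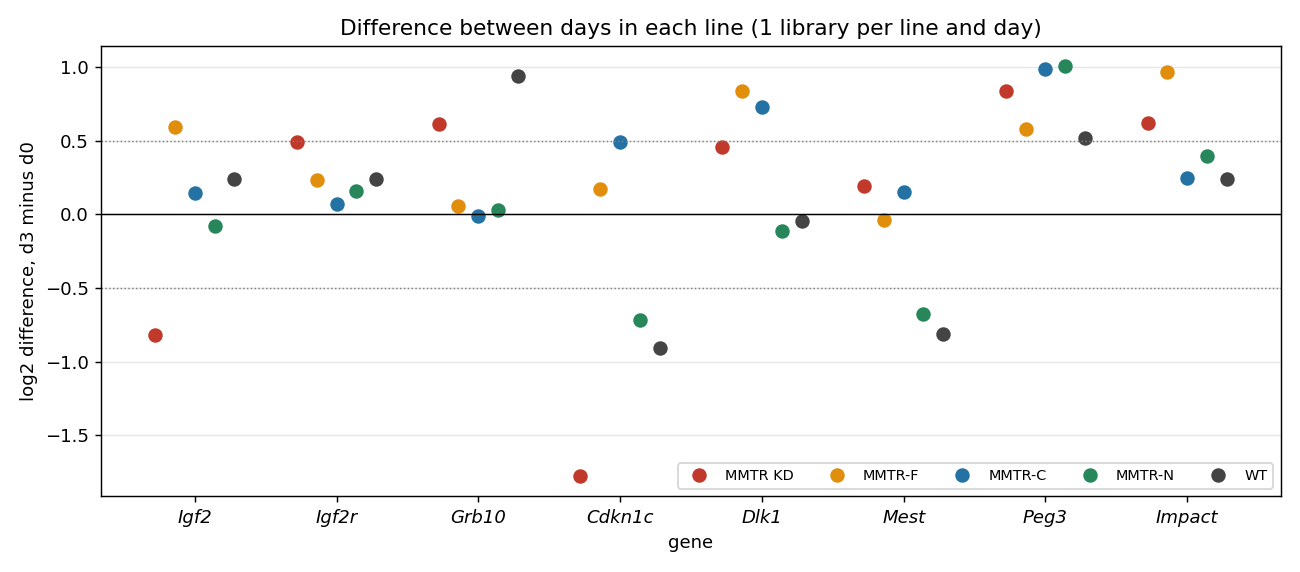
Difference of d3 minus d0 in each line (log2 scale, 1 library per line and day) for each imprinted gene, with dotted lines at 0.5 and -0.5. Peg3 lies above 0.5 in all 5 lines, while Cdkn1c spans -1.78 in MMTR KD to 0.49 in MMTR-C.

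Over the 5 lines, 3 of the 8 genes were higher at d3 (Peg3, Impact and Igf2r) and none was called lower (background 48.7% of kept probes in either direction, 24% higher and 24.7% lower). At an unadjusted p under 0.05 there were 4 of the 8, with no background computed at that level. Within lines, 3 of the 8 genes were higher at d3 by 0.5 or more and 2 lower in MMTR KD (8.56% and 8.01% of probes), 4 and none in MMTR-F (6.85% and 6.5%), 2 and none in MMTR-C (9.42% and 8.76%), 1 and 2 in MMTR-N (8.93% and 8.46%), and 2 and 2 in WT (9.31% and 8.75%). Impact was higher at d3 by 0.49 (SE 0.11, adjusted p = 0.0063) and Igf2r by 0.24 (SE 0.07, adjusted p = 0.020). With median scaling these estimates were 0.22 and 0.11 and neither was called (adjusted p = 0.12 and 0.22). The second Impact probe gave -0.09 (adjusted p = 0.31), and the second Igf2r probe 0.28 (adjusted p = 0.011). Without the MMTR KD line Igf2r was not called (adjusted p = 0.053).

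Other imprinted genes were examined in the same fit. Of 53 on a list, 24 had a kept probe, and none was called against WT by limma in any of the 4 lines. Of 96 pairs of gene and line, 20 had an unadjusted p under 0.05, with no background computed at that level. In the test of any line difference 1 of the 24 was called, against 4.46% of all kept probes. It was H13, a signal peptide peptidase gene (range over lines 0.56, adjusted p = 0.049). Between days, 15 of the 24 were called, against 48.7% of all kept probes, with 24% higher at d3 and 24.7% lower. Of the 9 expressed from the paternal copy, 4 rose at d3, with Ndn (0.81) and Snurf (0.58) the largest, and none fell. Of the 15 expressed from the maternal copy, 5 rose and 6 fell. Among those that rose were Atp10a (0.99), H13 (0.77) and Calcr (0.64), and the largest fall was in Cobl (-2.26, SE 0.07). Calcr was detected on 6 arrays, with levels of 8.51 to 9.16 at d3 and 8.01 to 8.20 at d0. It thus passed the filter mainly through d3, the day on which it was higher. Its call, included in the counts above, is given as a value and not read as a result.

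Genes that keep imprints were measured for 10 of 12 on a list, and Zfp57 was not among these 10. None was called against WT by limma in any line, with 9 of 40 pairs at an unadjusted p under 0.05. Between days, 2 rose and 4 fell at d3, against the same shares of all kept probes. The de novo methyltransferase gene Dnmt3b rose by 1.91 (SE 0.17, adjusted p = 1.0e-04), Smchd1 rose by 0.51, the corepressor gene Trim28 fell by 0.61 (SE 0.05) and Dnmt3l, whose product stimulates de novo methylation, fell by 0.89 (SE 0.31, adjusted p = 0.043). Dnmt3l had the largest span between lines on this list, at 2.18, with no call (adjusted p = 0.12).

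Of 24 listed genes of the IGF and insulin pathway, in which Igf2, Igf2r and Grb10 act, 16 were measured. At d3 10 of them rose and 1 fell (24% and 24.7% of all kept probes), with a list median of 0.40, against 0.00 over all kept probes. The receptor genes Insr (1.36, SE 0.10) and Igf1r (0.95, SE 0.13) and the adaptor gene Irs2 (0.77, SE 0.09) rose. Igfbp5, which encodes an IGF binding protein, was called higher at d3 by 1.21 (SE 0.13), and Igfbp7 lower by 0.71 (SE 0.11). Igfbp5 was detected on 6 of the 10 arrays, passing the filter mainly through d3, and Igfbp7 on 5, only through d0. Each was higher on that day, so their calls, included in the counts above, are given as values and not read as a result. Against WT 1 of 64 pairs was called by limma, with 14 pairs at an unadjusted p under 0.05. The shares of all kept probes called were 3.31% in MMTR KD (1.58% higher), 0.0731% in MMTR-N, 0.045% in MMTR-F and 0.0169% in MMTR-C. The called gene was Igfbp2, another binding protein gene, which was 0.82 higher in MMTR KD (SE 0.15, adjusted p = 0.031). Its level was 12.64 at d3 and 12.13 at d0 in MMTR KD, against 11.74 and 11.40 in WT. Of 6 other listed inhibitors of cyclin-dependent kinases (Cip/Kip and INK4 families), 4 were measured. Between days 1 of these 4 was called, against 48.7% of all kept probes. It was Cdkn1b, which rose at d3 by 0.31 (SE 0.06, adjusted p = 0.0033).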

How the data were processed

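The authors hybridized labelled RNA to Illumina mouse WG-6 v2 bead arrays and deposited a bead intensity for each of 45281 probes, with a detection p-value per array (BeadStudio 3.2 in the submitters' processing notes). A deposited log2 table of 16652 probes, filtered and normalized by the authors, served as an alternative. No sample column was left out.

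A probe was kept (17775) if its detection p-value was at most 0.05 on 5 or more of the 10 arrays. Intensities of the kept probes were log2 transformed and quantile normalized. limma 3.58.1 in R 4.3.3 fitted line and day (two-sided, Benjamini-Hochberg over all kept probes for each comparison, threshold 0.05, 4 residual and 4.06 prior degrees of freedom) and was tested on simulated data with known changes. All 10 pairs of lines were compared. Single pairs of libraries have no test and were counted past 0.5. The number of arrays limits the precision, and p-values measure the spread between these libraries only. Genes were named through the annotation supplied with the value table (14281 kept probes with 1 gene, 7 with several) and located in the RefSeq table, GRCm38.p6. A probe not detected in a line is given as a bound against the lowest detected kept probe. A correlation for likeness is over 10 day-centred libraries, 2 from each line, given with no p.

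Named were all members with every probe, the 3 genes most like each member whose lines spanned at least 1, and up to 4 called genes of a list. Other genes named with a value (the neighbours Cobl, Ddc, Fignl1, Copg2 and Phlda2, and the markers Sox7, Mixl1, Tfap2c and Thy1) were chosen after their values were seen. Members and lists were chosen with earlier results of these data known. Alternatives covered background correction (normexp, offset 50), scaling, the filter, the deposited table, the variance model, the choice of probe, the line term, the methods' t-test and leaving out each line. Python 3.11.15, pandas 2.3.3, numpy 2.4.6 and matplotlib 3.10.9 were also used.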

Additional observations from a re-analysis of the deposited data

Results flagged for a closer look

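Igf2 in MMTR KD at d0 stood away from the other 4 lines of that day. Its level of 11.23 lay above the next line by 0.723 of the whole range of the 5 d0 libraries, against a critical value of 0.71. 16 sets of 5 libraries were examined (8 genes on 2 days) and this was the only 1 past that value, while chance flags about 1 in 20 sets.

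The difference of d3 from d0 in Igf2 ran in opposite directions past 0.5 in a pair of lines, at -0.82 in MMTR KD and 0.59 in MMTR-F, a gap of 1.42 on the log2 scale. With 1 library per line and day, that gap was not tested.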

How the results depend on the processing

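The comparison of days is paired by line, since line is a term of the model. With 1 library per line and day and no replicate numbers in the labels, no replicate block could be added. No called estimate changed sign under the alternatives, apart from that of Impact between days at its second probe (-0.09), and for single genes 288 values kept their side of the threshold, 25 lost the call and 3 gained it. With unmoderated variances, 1 of the 8 genes (Peg3) was called between days, where 37.6% of all kept probes were called. In that setting 0 were called in any line against WT or by the test of any line difference (0.0169% of kept probes or fewer). 1 gene (Peg3) was also called between days without the line term and by the methods' t-test, before and after Benjamini-Hochberg adjustment. In MMTR KD 1 gene (Impact) was called against WT with probes detected on all 10 arrays or at a detection p of 0.01, both of which remove Mest from the probes tested. Leaving out 1 line at a time gave 2 to 4 genes between days, with 39.8% to 43.2% of all kept probes called. The test of any line then gave 1 to 3 genes, against 4.46% of all kept probes with all lines in. The lowest count was without MMTR KD (Grb10 alone), where 0.0563% of all kept probes were called. Without MMTR-F there were 2 genes (Grb10 and Impact), where 1.47% were called. Against WT, leaving out 1 line gave 1 to 2 genes in MMTR KD (1.98% to 3.28% of kept probes) and 0 to 1 in MMTR-F (0.00563% to 0.0225%). It gave 1 in both MMTR-N (0.0169% to 0.0281%) and MMTR-C (0.0169%). The WT line and the tested line cannot be left out of their own comparison. Of 64 single differences from WT and 40 between days, 28 and 18 passed 0.5, and 13 and 2 passed a threshold of 1. With the methods' t-test 9837 of 17775 probes were called between days, and 8167 after adjustment. With median scaling the count between days stayed at 3, but the genes were Cdkn1c, Dlk1 and Peg3. The cause of these differences was not tested. Signal over background limits Mest and the second probes of Grb10, Dlk1 and Peg3, each of which was not detected on at least 1 array.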
